A study of Mus musculus with 8 samples.

Results

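Chromatin remodelers and related ARID and bromodomain genes were followed in the nuclear RNA of mouse forebrain excitatory neurons after pilocarpine. The genes were taken by symbol from the families Smarca to Smarce, Arid1 to Arid5, Chd, Ino80, Brd, Baz, Actl6 and Dpf, with Bptf, Atrx, Srcap and Ep400. They needed at least 10 counts in 4 or more libraries. Arid symbols also had to end in a letter from a to c. Arid2, a BAF gene whose symbol has no such letter, was therefore left out whatever its counts. The rule gave 56 genes of the 55471 in the exonic count table, of which 19415 met the same count rule. All 56 were also in a second table that counts exonic and intronic reads of a gene apart. No library held fewer than 38 exonic counts for any of the 56. By complex or domain they fell into 18 SWI/SNF (BAF) genes, 9 CHD genes, 8 genes of the INO80, SRCAP and EP400 complexes, 7 ISWI genes, 3 other SNF2-type ATPases, 7 ARID genes outside BAF, and 4 other bromodomain genes.

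The Pilo group had 4 samples from mice given pilocarpine hydrochloride, a muscarinic receptor agonist that evokes seizures, at 340 mg/kg. The Mock group had 4 samples from mice given saline in its place. Both groups had received scopolamine methyl nitrate, a muscarinic blocker, at 1 mg/kg 30 min earlier, and all were male C57BL/6J mice of 6 to 8 weeks with the genotype CaMKIIalpha-Cre:SUN1-sfGFP. The Pilo mice had 100 min for seizures to develop and were kept if their seizures reached 3 to 5 on the Racine scale, so that the drug, the seizures and this selection cannot be told apart. Nuclei carrying the green fluorescent SUN1 envelope protein, switched on by Cre under the CaMKIIalpha promoter, were pulled from forebrain homogenate by antibody (INTACT), and polyadenylated RNA was sequenced. Whether each sample was a mouse of its own is not in the labels, and the p-values therefore reflect variation among these 8 samples only, part of which may be technical. A lower level in such a bulk sample may mean fewer nuclei of a type or less RNA per nucleus, and these cannot be told apart.

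Remodelers use the energy of ATP to slide, evict or exchange nucleosomes, and so set which DNA a transcription factor or polymerase can reach. The BAF complex opens enhancers and promoters, and its subunits are swapped as a neural progenitor becomes a neuron: ACTL6A, DPF2, PHF10 and SS18 are replaced by ACTL6B, DPF1 or DPF3, and SS18L1. ISWI complexes space nucleosomes, CHD proteins include the NuRD ATPases and factors that follow RNA polymerase II, and the INO80 and SRCAP complexes handle the histone variant H2A.Z. ARID domains bind DNA, and bromodomains bind acetylated lysines on histones.

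The exonic table held 29356788 to 36161448 counts per library, and the second one held 27135364 to 33715773 exonic and 11928054 to 16703475 intronic counts. CPM, the unit of level used here, is the count scaled to a common library total after TMM normalization. Levels per kilobase divide CPM by the merged length of all annotated exons of a gene, which may exceed that of the transcripts expressed. The 6 excitatory neuron markers summed to 2540 to 3100 CPM in Pilo and 2270 to 2910 CPM in Mock samples, and Tbr1, Neurod6 and Neurod2 passed the test as higher in Pilo. Of 6 inhibitory neuron markers, Gad1 and Gad2 were higher, and the sum was 153 to 240 CPM in Pilo and 117 to 154 CPM in Mock. Oligodendrocyte markers (Mbp higher, 1 of 5) summed to 359 to 641 CPM in Pilo and 279 to 380 CPM in Mock, and oligodendrocyte precursor markers (Olig2 higher, 1 of 4) to 27.1 to 63.0 CPM in Pilo and 23.5 to 43.9 CPM in Mock. None of the 5 astrocyte, 5 microglia and 5 endothelial markers passed. Their sums were 114 to 304, 12.3 to 20.1 and 6.85 to 48.5 CPM in Pilo, and 111 to 234, 11.2 to 16.9 and 4.04 to 17.5 CPM in Mock. No marker was at 0 in all libraries, and the part of other cell types in the changes below was not tested. Of the 56 genes, 34 overlap another annotated gene, 16 of them one on the same strand. As the strand setting of the counting is not given in the sources used here, their reads and those of the overlapping gene cannot be told apart.

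In exonic counts, 14 of the 56 genes were higher in Pilo than in Mock at an adjusted p under 0.05 and 6 were lower, in the quasi-likelihood test of edgeR, with Benjamini-Hochberg adjustment over all 19176 genes tested. These are 25.0% and 10.7% of the 56, beside 15.6% and 16.2% of all genes tested. The 56 had a median log2 fold change of 0.10, against 0.005 over all genes, and a range of -0.62 to 1.39. The higher genes included Arid5a, Arid3b, Smarca5, Dpf1, Ino80c, Chd1, Chd2, Smarca2, Arid5b, Baz1a, Brd7, Ino80 and Ep400. The lower ones were Dpf2, Srcap, Ino80e, Brd9, Ino80d and Baz1b, so that every family with a call in the lower direction also had one in the higher direction. The changes were modest, and of the 56 only Arid5a and Arid3b exceeded 2-fold. With the replicate number as a block, which pairs same-numbered Pilo and Mock samples, 25 of the 56 were higher and 7 lower, beside 23.8% and 23.2% of all genes. The block added Smarcd1, Smarcd2, Smarcd3, Smarce1, Actl6a, Arid1a, Chd5, Chd8, Baz2a, Smarcad1 and Atrx in the higher direction and Chd6 in the lower one, with the blocked values given under each family.

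**Figure D1:**
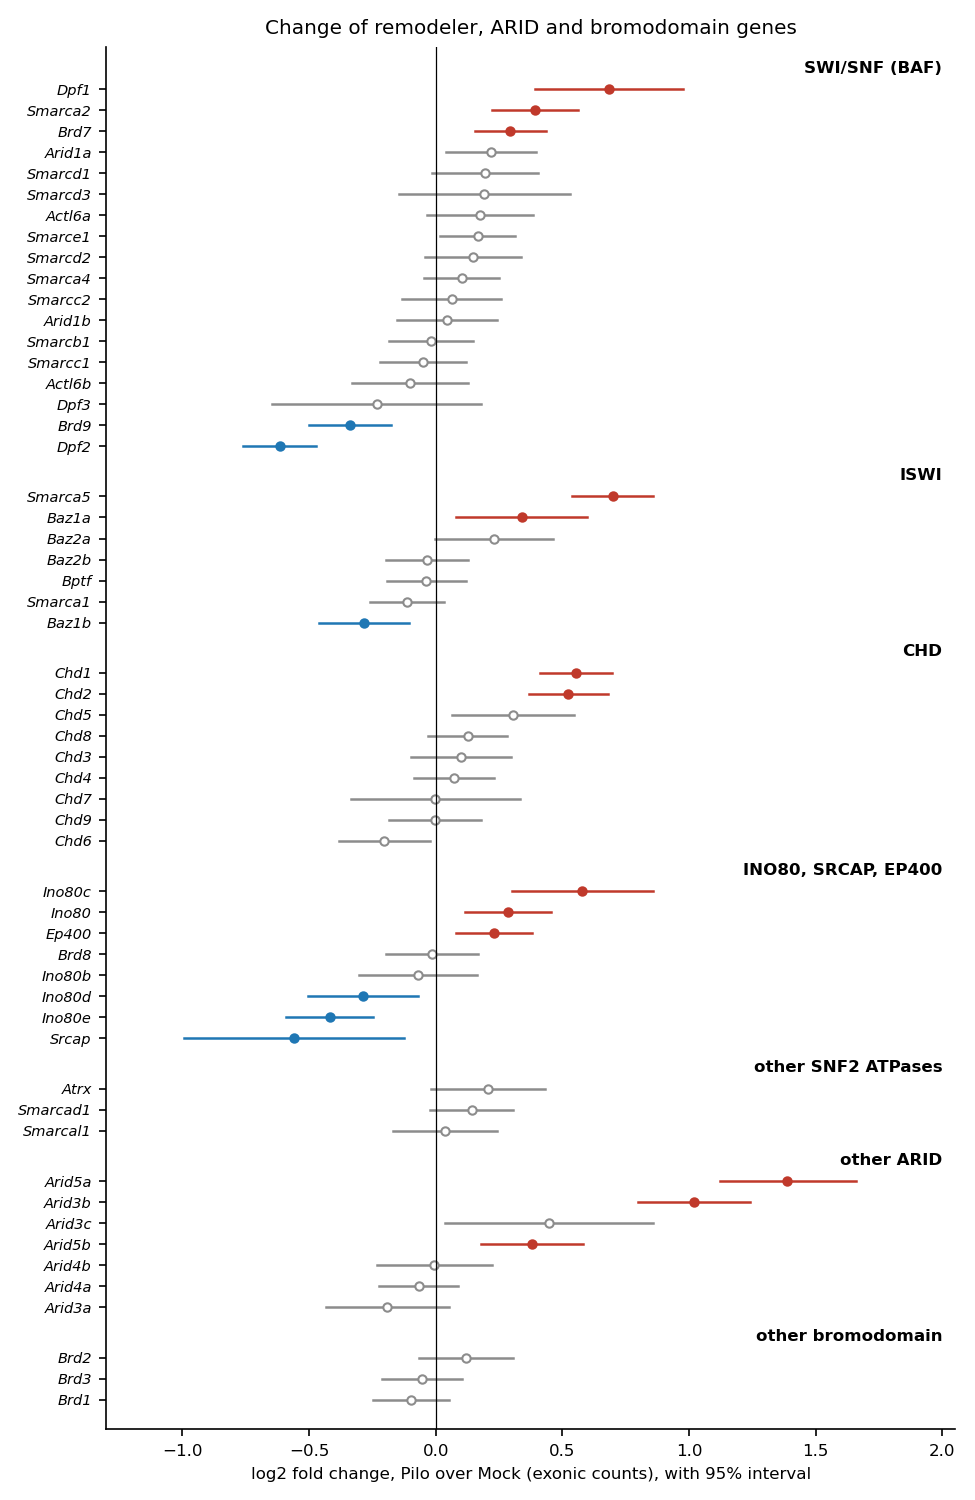
Log2 fold change of exonic counts, Pilo over Mock, for 55 of the 56 genes by family, with 95% intervals from edgeR (4 samples per group). Filled red points are genes higher in Pilo, filled blue points the 6 lower, and open grey points did not pass; Arid5a and Arid3b lie furthest right, and Dpf2 furthest left.

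Among the ARID genes outside BAF, 3 of 7 were higher in Pilo and none lower, and the family had the widest span. Arid5a, which in mouse immune cells stabilises inflammatory mRNAs, had 15.9, 15.0, 15.8 and 21.0 CPM in Pilo, against 5.84, 6.44, 6.98 and 6.57 CPM in Mock. Every Pilo sample was above every Mock sample, and Pilo replicate 4 stood above the other Pilo samples. The difference was 2.62-fold (log2 fold change 1.39, SE 0.12, adjusted p = 6.98e-06). Arid3b, a DNA-binding relative of the B cell factor ARID3A, had 23.8, 31.0, 31.4 and 27.9 CPM in Pilo and 14.3, 13.4, 15.3 and 13.3 CPM in Mock. The groups did not overlap, and the fold was 2.02 (log2 1.02, SE 0.10, adjusted p = 1.6e-05). Arid5b, a cofactor of the histone demethylase PHF2, averaged 46.5 ± 2.47 CPM in Pilo and 35.7 ± 4.53 CPM in Mock (SD, n = 4 each; log2 0.38, SE 0.09, adjusted p = 0.00739). The 4 that did not pass ranged from -0.19 for Arid3a to 0.45 for Arid3c, with Arid4a and Arid4b, partners of the Sin3 histone deacetylase complex, between them at -0.07 and -0.01. Arid3c had few counts, at 1.93 ± 0.24 CPM in Pilo and 1.42 ± 0.18 CPM in Mock (SD, n = 4 each), and missed the threshold although its groups did not overlap (adjusted p = 0.0916). Per kilobase of exon, Arid5a was at 1.35 ± 0.22 CPM in Pilo and 0.515 ± 0.038 CPM in Mock, where it was the lowest of the 56 genes, and Arid3b at 3.58 ± 0.44 CPM in Pilo and 1.76 ± 0.12 CPM in Mock (SD, n = 4 each). That rank rests on the 12.54 kb of annotated exon of Arid5a. Undivided, Arid3c, Dpf3 and Baz1a were lower in Mock, at 1.42, 2.64 and 5.43 CPM, against 6.46 CPM for Arid5a.

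Arid5a (ENSMUSG00000037447) lies at chr1:36307733-36324029 on the plus strand and Arid3b (ENSMUSG00000004661) at chr9:57790353-57836793 on the minus strand (GRCm38, GENCODE vM21). Their promoter windows, of 250 bases before and 50 after the start, are shown because these genes had the largest changes. Sequences are from RefSeq on GRCm38.p6, read 5′ to 3′ along the gene, for Arid5a at chr1:36307483-36307782 (plus strand) and for the upstream one of the 2 Arid3b starts at chr9:57836730-57837029 (minus strand). Capitals mark letters matching, on either strand, the motifs of activity-regulated factors: the cAMP response element TGACGTCA and its core TGACG, which the full element contains, the AP-1 site TGANTCA, the EGR site GCGNGGGCG, and the CArG box of serum response factor.
Arid5a: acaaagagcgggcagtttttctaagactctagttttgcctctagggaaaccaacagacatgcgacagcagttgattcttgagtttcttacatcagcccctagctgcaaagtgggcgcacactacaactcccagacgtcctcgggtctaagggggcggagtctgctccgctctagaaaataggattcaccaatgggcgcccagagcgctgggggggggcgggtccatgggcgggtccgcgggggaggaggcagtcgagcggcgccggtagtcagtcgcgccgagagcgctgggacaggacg
Arid3b: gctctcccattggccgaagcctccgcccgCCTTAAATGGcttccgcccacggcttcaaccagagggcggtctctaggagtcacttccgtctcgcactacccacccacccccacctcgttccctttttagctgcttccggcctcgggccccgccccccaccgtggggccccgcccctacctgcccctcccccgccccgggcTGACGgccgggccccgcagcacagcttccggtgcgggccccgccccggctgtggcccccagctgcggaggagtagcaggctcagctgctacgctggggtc
The Arid5a window held none of these motifs, and that of Arid3b held a CArG box 221 bases and a TGACG core 50 bases before the start. RefSeq windows were matched for 44 of the 56 genes, 54 windows in all. TGACG was in 18 of the 54 (33.3%), against 20.8% of all 32851 windows of the same length, and the full TGACGTCA in 1 (1.85%, against 1.79%). The AP-1 site was in 2 (3.7%, against 7.81%), the EGR site in 4 (7.41%, against 5.55%) and the CArG box in 1, that of Arid3b (1.85%, against 1.63%). The 18 windows with TGACG belong to 16 genes, as overlapping windows of Chd4 and of Chd5 share a site. Differences from all windows were not tested. A match describes the letters of the window and is not evidence of binding.

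**Figure D2:**
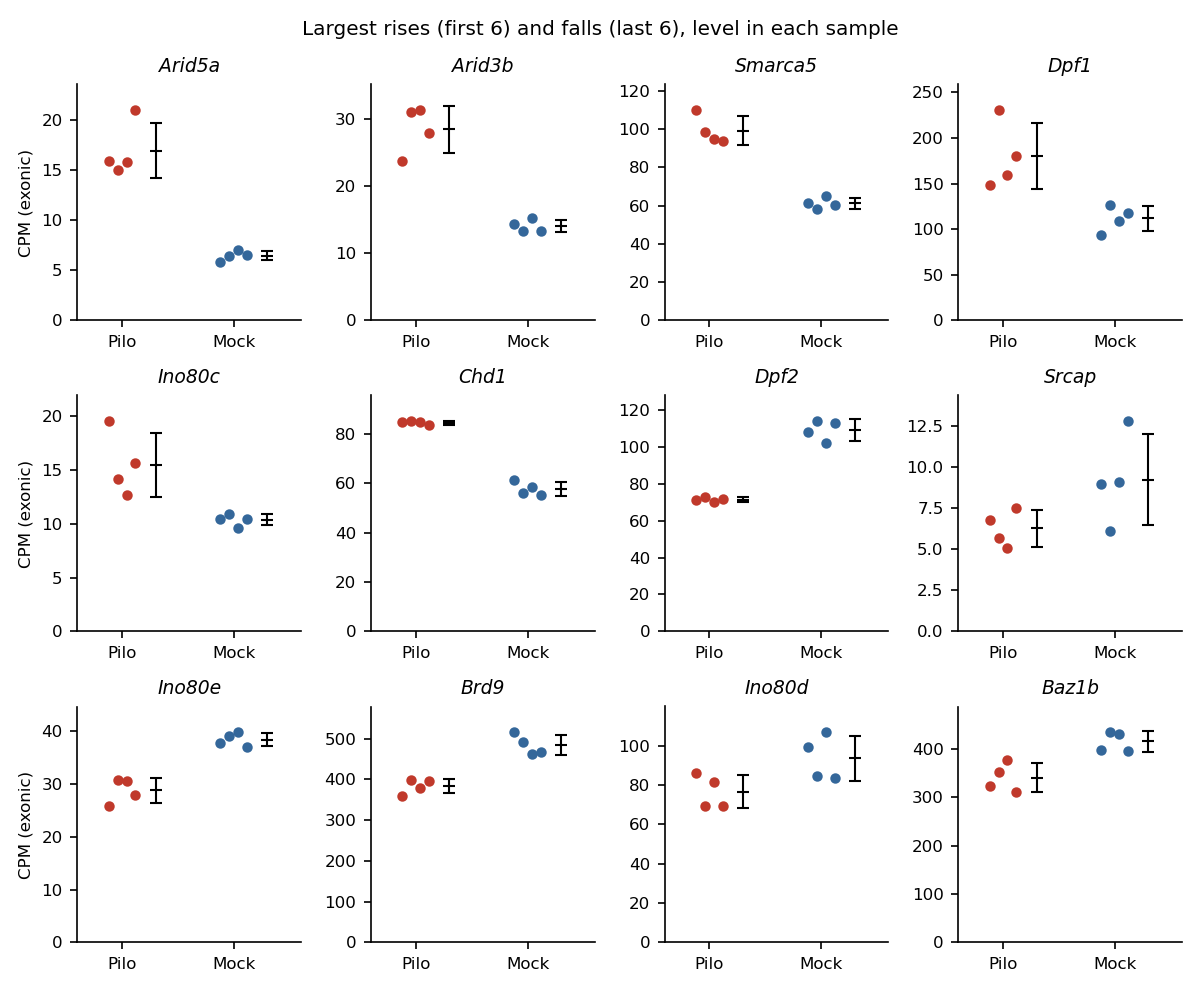
Exonic level in CPM in each sample (linear axes from 0) of the 6 genes with the largest rises and the 6 with the largest falls among those past the test. Points are the 4 Pilo samples (red, left) and 4 Mock samples (blue, right), with mean and SD beside them. The groups overlap for Srcap and Ino80d. The genes were picked as the largest changes past the test, so the separation of the other 10 adds no evidence of its own.

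Of the 18 BAF genes, Dpf1, Smarca2 and Brd7 were higher and Dpf2 and Brd9 lower, with a family median of 0.13. The DPF (BAF45) genes went in opposite directions. Dpf1, the neuronal subunit, had 148, 231, 159 and 180 CPM in Pilo and 93.8, 127, 109 and 118 CPM in Mock, which did not overlap (log2 fold change 0.68, SE 0.13, adjusted p = 0.00214). Dpf2, used in most other cell types, had 70.9, 72.8, 69.8 and 71.8 CPM in Pilo, against 108, 114, 102 and 113 CPM in Mock. The 4 Pilo samples were close together and all below Mock (log2 fold change -0.62, SE 0.07, adjusted p = 2.72e-05). Dpf3, the other neuronal form, was scarce, at 2.24 ± 0.28 CPM in Pilo and 2.64 ± 0.53 CPM in Mock (SD, n = 4 each) and did not pass (log2 -0.23, adjusted p = 0.388). Per kilobase of exon, Dpf1 was at 33.4 ± 6.78 CPM in Pilo and 20.8 ± 2.59 CPM in Mock, and Dpf2 at 11.0 ± 0.20 CPM in Pilo and 16.8 ± 0.88 CPM in Mock (SD, n = 4 each).

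The promoter windows of these oppositely changed relatives, and that of Smarca2, are set out for comparison, with capitals as above (RefSeq, GRCm38.p6; chr7:29303755-29304054 plus strand, chr19:5912822-5913121 minus strand and chr19:26604910-26605209 plus strand).
Dpf1: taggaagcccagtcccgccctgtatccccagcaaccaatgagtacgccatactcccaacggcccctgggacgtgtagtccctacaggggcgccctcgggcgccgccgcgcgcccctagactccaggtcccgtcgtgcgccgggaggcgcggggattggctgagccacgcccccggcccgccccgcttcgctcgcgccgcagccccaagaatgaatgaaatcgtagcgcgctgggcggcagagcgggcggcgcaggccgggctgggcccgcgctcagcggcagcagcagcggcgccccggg
Dpf2: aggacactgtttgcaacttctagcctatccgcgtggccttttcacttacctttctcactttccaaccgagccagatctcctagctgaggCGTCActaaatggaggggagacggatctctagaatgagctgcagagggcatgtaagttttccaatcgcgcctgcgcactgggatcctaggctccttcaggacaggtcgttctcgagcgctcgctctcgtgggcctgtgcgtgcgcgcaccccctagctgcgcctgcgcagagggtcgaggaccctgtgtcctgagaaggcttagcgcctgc
Smarca2: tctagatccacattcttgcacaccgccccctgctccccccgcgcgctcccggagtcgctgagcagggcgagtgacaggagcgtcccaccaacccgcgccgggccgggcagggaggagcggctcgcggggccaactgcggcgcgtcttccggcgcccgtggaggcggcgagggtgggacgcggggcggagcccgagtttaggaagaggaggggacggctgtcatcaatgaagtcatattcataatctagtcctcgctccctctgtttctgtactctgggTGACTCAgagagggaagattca
The Dpf1 window held none of the motifs, Dpf2 had a TGACG core on the opposite strand 161 bases before its start, and Smarca2 an AP-1 site 28 bases after it. Dpf1 (chr7:29303951-29318243), Dpf2 (chr19:5896516-5913010) and Smarca2 (chr19:26605050-26778322) are each overlapped by an annotated antisense transcript.

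Of the alternative BAF ATPases, Smarca2 passed and Smarca4 did not, and the difference between their changes was not tested. Smarca2 (BRM) had 199, 196, 192 and 193 CPM in Pilo, against 131, 146, 161 and 157 CPM in Mock, with no overlap (log2 fold change 0.39, SE 0.08, adjusted p = 0.00198). Smarca4 (BRG1) had 174, 177, 175 and 168 CPM in Pilo and 157, 173, 157 and 159 CPM in Mock. Mock replicate 2 reached into the Pilo range, and the log2 fold change was 0.10 (95% interval -0.05 to 0.25, adjusted p = 0.284). Per kilobase of merged exon, Smarca4 was at 26.8 ± 0.60 CPM in Pilo and 24.9 ± 1.24 CPM in Mock (SD, n = 4 each). Smarca2 was at 13.7 ± 0.23 CPM in Pilo and 10.4 ± 0.96 CPM in Mock. This order rests on the annotated exon length, 14.269 kb for Smarca2 and 6.475 kb for Smarca4. Undivided, Smarca2 averaged 195 CPM in Pilo and 149 CPM in Mock, and Smarca4 173 CPM in Pilo and 161 CPM in Mock. Which of the 2 had more transcripts was not tested. The DNA-binding subunit gene Arid1a had 120, 145, 139 and 146 CPM in Pilo and 112, 117, 115 and 129 CPM in Mock. Only Pilo replicate 1 fell within the Mock range (log2 0.22, SE 0.08, adjusted p = 0.0584), and with the replicate block Arid1a passed (adjusted p = 0.0027). It also passed with RLE size factors, with DESeq2, and when Mock replicate 4 or Pilo replicate 1 was left out (adjusted p down to 0.0131). Its relative Arid1b was at 0.05 (adjusted p = 0.748). Actl6b, the neuronal actin-like subunit, had 180, 247, 208 and 204 CPM in Pilo and 226, 252, 191 and 233 CPM in Mock. The groups overlapped (log2 -0.10, 95% interval -0.33 to 0.13, adjusted p = 0.506), and its progenitor counterpart Actl6a was at 0.17 (adjusted p = 0.198, and 0.0439 with the block).

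Brd7 and Brd9, bromodomain subunits of different BAF subtypes, passed in opposite directions. Pbrm1, another bromodomain subunit, counted below among the BAF partners, did not pass (log2 -0.02, adjusted p = 0.877). Brd7, of the PBAF form, averaged 86.1 ± 2.80 CPM in Pilo and 70.2 ± 2.63 CPM in Mock (SD, n = 4 each; log2 fold change 0.29, SE 0.07, adjusted p = 0.00387). Brd9, of the non-canonical form, had 360, 399, 379 and 396 CPM in Pilo, against 517, 491, 463 and 468 CPM in Mock, with no overlap (log2 -0.34, SE 0.07, adjusted p = 0.00366). Per kilobase, Brd9 was at 55.2 ± 2.56 CPM in Pilo and 69.8 ± 3.53 CPM in Mock (SD, n = 4 each), where it was the highest of the 56 genes. The remaining BAF genes, the core subunits Smarcb1, Smarcc1, Smarcc2 and Smarce1 and the alternative Smarcd1, Smarcd2 and Smarcd3, did not pass. Their log2 fold changes lay between -0.05 and 0.20. With the block, Smarcd1 (adjusted p = 0.00427), Smarcd2 (0.0452), Smarcd3 (0.0151) and Smarce1 (0.0293) passed as higher. Smarcc2 stood at 56.3 ± 4.33 CPM per kb in Pilo and 53.9 ± 5.48 in Mock, above Smarcc1 at 7.50 ± 0.56 in Pilo and 7.76 ± 0.54 in Mock (SD, n = 4 each).

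**Figure D3:**
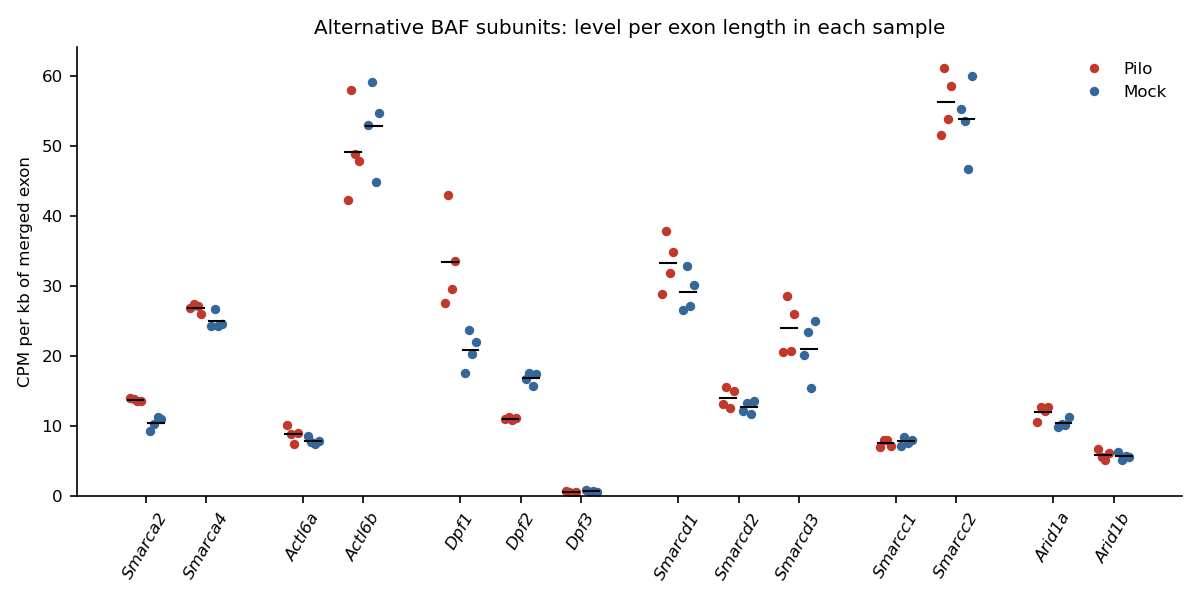
Level of alternative BAF subunits in CPM per kilobase of merged exon (linear axis from 0); points are the 4 Pilo (red, left of each pair) and 4 Mock (blue) samples, and lines the means. Dpf1 and Smarca2 lie higher and Dpf2 lower in Pilo with no overlap, while Actl6b, Smarcc2 and the Smarcd genes overlap between the groups.

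Of the 7 ISWI genes, 2 were higher and 1 lower, and 1 of the 2 ATPases passed. Smarca5 (SNF2H), on mouse chromosome 8, had 110, 98.3, 94.7 and 93.6 CPM in Pilo, against 61.1, 58.1, 64.8 and 60.3 CPM in Mock. The groups were far apart, and the fold was 1.62 (log2 0.70, SE 0.07, adjusted p = 2.23e-05). Smarca1 (SNF2L), the form of mature neurons, was at 87.1 ± 3.13 CPM in Pilo and 94.2 ± 4.09 CPM in Mock (SD, n = 4 each; log2 -0.11, adjusted p = 0.221). Per kilobase, Smarca5 was at 12.7 ± 0.95 CPM in Pilo and 7.85 ± 0.36 CPM in Mock, and Smarca1 at 14.2 ± 0.51 CPM in Pilo and 15.4 ± 0.67 CPM in Mock (SD, n = 4 each). The promoter window of Smarca5 is shown as that of the ATPase with the largest change (RefSeq, GRCm38.p6, chr8:80739410-80739709, minus strand).
Smarca5: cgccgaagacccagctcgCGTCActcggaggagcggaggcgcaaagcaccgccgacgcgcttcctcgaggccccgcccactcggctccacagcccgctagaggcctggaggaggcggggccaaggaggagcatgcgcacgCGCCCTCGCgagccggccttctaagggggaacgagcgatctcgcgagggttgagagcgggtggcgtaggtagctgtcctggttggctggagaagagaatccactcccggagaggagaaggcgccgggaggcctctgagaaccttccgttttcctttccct
Its capitals mark, on the opposite strand, a TGACG core 232 bases and an EGR site 110 bases before the start.

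The partner subunits that give ISWI complexes their targets also split. Baz1b (WSTF), which pairs with SMARCA5 at replication forks, had 323, 351, 377 and 311 CPM in Pilo and 397, 435, 431 and 396 CPM in Mock. The groups were apart (log2 fold change -0.28, SE 0.08, adjusted p = 0.0178). Baz1a (ACF1), its counterpart in the nucleosome-spacing ACF complex, was scarcer per kilobase, at 0.959 ± 0.071 CPM in Pilo and 0.758 ± 0.048 CPM in Mock, against 24.9 ± 2.17 CPM in Pilo and 30.3 ± 1.55 CPM in Mock for Baz1b. Its level was 6.87 ± 0.51 CPM in Pilo and 5.43 ± 0.34 CPM in Mock (SD, n = 4 each; log2 0.34, SE 0.12, adjusted p = 0.0451). Baz1a lost its call in 6 of the 8 fits that left out a library, with an adjusted p of up to 0.121. Mock replicates 2, 3 and 4 and Pilo replicates 1, 3 and 4 were the libraries concerned. Leaving out Mock replicate 2, Mock replicate 3 or Pilo replicate 4 removed the call of Baz1b (adjusted p up to 0.0708). Bptf, the large NURF subunit that reads methylated histone H3, had 166, 158, 141 and 156 CPM in Pilo and 165, 154, 159 and 160 CPM in Mock. The groups overlapped (log2 -0.04, 95% interval -0.19 to 0.12, adjusted p = 0.741). Baz2a of the nucleolar NoRC complex was at 0.23 (adjusted p = 0.125, and 0.00137 with the block) and Baz2b at -0.03 (adjusted p = 0.774).

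Among the 9 CHD genes, Chd1 and Chd2, the closely related pair that accompanies elongating RNA polymerase II, were higher and none was lower. Chd1 had 84.7, 85.2, 84.7 and 83.3 CPM in Pilo, against 61.1, 55.9, 58.4 and 55.0 CPM in Mock. The Pilo samples were nearly identical and all above Mock (log2 fold change 0.55, SE 0.07, adjusted p = 4.85e-05). Chd2, an epilepsy gene in humans, was at 193 ± 12.6 CPM in Pilo and 134 ± 4.38 CPM in Mock (SD, n = 4 each; log2 0.52, SE 0.07, adjusted p = 0.000156). Chd2 is overlapped on its own strand by 4 annotated transcripts of other genes. The NuRD ATPase genes did not pass. Chd4 had 275, 308, 277 and 299 CPM in Pilo and 265, 277, 270 and 291 CPM in Mock, which overlapped (log2 0.07, 95% interval -0.08 to 0.23, adjusted p = 0.487). Chd3 was at 0.10 (adjusted p = 0.449). Chd5, the neuronal NuRD ATPase and per kilobase the most abundant CHD gene, at 59.7 ± 8.37 CPM per kb in Pilo and 48.4 ± 5.86 CPM per kb in Mock (SD, n = 4 each), just missed the threshold (log2 0.30, adjusted p = 0.0529) and passed with the block (adjusted p = 0.000156). The others, Chd6 to Chd9, lay between -0.20 and 0.13, and Chd6 at the lower end passed only with the block (adjusted p = 0.0813 without it and 0.00511 with it). Chd8, at the upper end, also passed only with the block (adjusted p = 0.214 without it and 0.0454 with it).

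Of the 8 INO80, SRCAP and EP400 genes, 3 were higher and 3 lower in exons, Srcap being one of the lower ones. In gene bodies 3 were higher and 1 lower, and in introns 2 and 1. The INO80 ATPase gene itself was higher, at 111 ± 10.1 CPM in Pilo and 90.8 ± 3.05 CPM in Mock (SD, n = 4 each; log2 fold change 0.28, SE 0.08, adjusted p = 0.014), and so was Ep400, the ATPase of the TIP60 complex (0.23, SE 0.07, adjusted p = 0.0234). Ep400 did not pass once Mock replicate 2 or Pilo replicate 4 was left out (adjusted p up to 0.0646). The INO80 subunits moved in both directions. Ino80c had 19.6, 14.2, 12.7 and 15.7 CPM in Pilo, against 10.5, 10.9, 9.64 and 10.5 CPM in Mock, with no overlap (log2 0.58, SE 0.13, adjusted p = 0.00381). Ino80e had 25.8, 30.7, 30.6 and 28.0 CPM in Pilo, against 37.7, 39.1, 39.9 and 37.1 CPM in Mock, again with no overlap (log2 -0.42, SE 0.08, adjusted p = 0.00148). It shares its locus (chr7:126850960-126862377) with Doc2a and Hirip3 on the opposite strand. Ino80d had 86.3, 69.4, 81.3 and 69.5 CPM in Pilo and 99.3, 84.6, 107 and 83.5 CPM in Mock, and Pilo replicate 1 lay above the 2 lowest of these 4 Mock samples (log2 -0.29, SE 0.10, adjusted p = 0.0438). Its call was lost in 5 of the 8 fits that left out a library, which left out Mock replicate 1, Mock replicate 3, or one of Pilo replicates 2, 3 and 4 (adjusted p up to 0.165). Ino80b (-0.07) and Brd8 (-0.02), a bromodomain subunit of the TIP60 complex, did not pass.

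The lower call of Srcap, which deposits H2A.Z, rested on a small share of its reads. In the exonic table Srcap had 6.77, 5.68, 5.07 and 7.52 CPM in Pilo and 8.96, 6.12, 9.06 and 12.8 CPM in Mock, which overlapped (log2 fold change -0.56, SE 0.20, adjusted p = 0.0491). That table held 237, 174, 159 and 227 Srcap reads in Pilo and 270, 191, 340 and 382 in Mock. The exonic columns of the second table held 5563, 4767, 4937 and 4872 in Pilo and 5002, 6015, 4758 and 5302 in Mock. These are in its own order, in which columns 2 and 3 of each group are exchanged against the first table. The first table had 4.8% of the exonic reads of the second for Srcap, while for the other 55 genes it had 93.9% to 108%. In the second table's exonic counts Srcap was at -0.08, and in gene body counts at 0.01 (adjusted p = 0.955). Srcap (chr7:127511983-127561219) overlaps a protein-coding gene model on the same strand, Gm42715, and the part of that model in the difference between the tables was not tested. The call was also lost in 6 of the 8 fits without a library, which left out one of Mock replicates 1, 3 and 4 or of Pilo replicates 1, 2 and 3, with log2 fold changes from -0.71 to -0.36 over the 8.

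**Figure D4:**
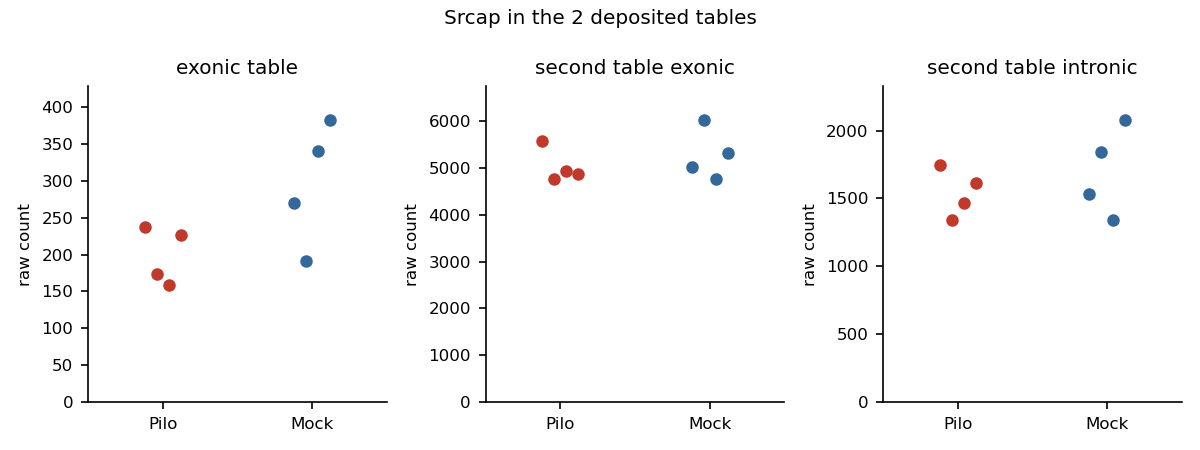
Raw Srcap counts in each of 4 Pilo (red, left) and 4 Mock (blue, right) samples in the exonic table, the exonic columns and the intronic columns of the second table (linear axes from 0, with different ranges). The exonic table held 159 to 382 reads per library, the second table's exonic columns 4758 to 6015.

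Among the other bromodomain genes, the BET family readers of acetylated histones Brd2 and Brd3 were at 0.12 (adjusted p = 0.329) and -0.05 (adjusted p = 0.626). Brd1, a scaffold of the HBO1 acetyltransferase complex, was at -0.10 (adjusted p = 0.311). None of the 3 remaining SNF2-type ATPases passed. Atrx, which loads histone H3.3 at repeats, had 564, 439, 413 and 473 CPM in Pilo and 456, 366, 419 and 397 CPM in Mock. Pilo replicate 1 was the highest, and the groups overlapped (log2 0.21, SE 0.10, adjusted p = 0.154, and 0.00781 with the replicate block). Smarcad1 was at 0.14 (adjusted p = 0.181, and 0.0434 with the block) and Smarcal1 at 0.04 (adjusted p = 0.817).

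Intronic reads come mostly from transcripts not yet spliced, and the nuclear RNA held many of them. In Mock the intronic share of a gene's reads ran from 8.32% for Ino80d to 79.0% for Dpf3. In intronic counts, 14 of the 56 genes were higher and 6 lower, beside 19.6% and 21.9% of all 13318 genes tested, with a median of 0.14 against -0.004 for all genes. In gene body counts, the sum of both regions, 16 were higher and 5 lower, beside 19.1% and 18.2% of 14816 genes, with a median of 0.09 against 0.03. With the replicate block these became 23 higher and 12 lower for introns, beside 27.7% and 29.2% of all genes tested, and 26 higher and 11 lower for gene bodies, beside 28.9% and 25.1%. Arid5a was at 1.39 in introns (SE 0.20, adjusted p = 8.98e-05), Arid3b at 1.05 (SE 0.18, adjusted p = 0.000257) and Smarca5 at 0.54 (SE 0.10, adjusted p = 0.000451). Ino80c was at 0.78, Dpf1 at 0.76, Smarca2 at 0.48, Chd1 at 0.39, Ino80 at 0.28, Chd2 at 0.27 and Dpf2 at -0.47, all past the test. Some genes passed in introns and not, without the block, in exons. Actl6a rose by 0.42, Chd5 by 0.41, Arid4b by 0.38, Smarcd1 by 0.36 and Smarce1 by 0.30 on the log2 scale. Arid3a was at -0.67, Chd6 at -0.46, Smarcc1 at -0.43 and Brd3 at -0.37. Of these 9, Actl6a, Chd5, Smarcd1, Smarce1 and Chd6 also passed in exons with the block, as given above. Baz1b in introns was at -0.15 (adjusted p = 0.265) and passed with the block (adjusted p = 0.0446). The intronic call of Smarcd1 was lost without Mock replicate 1, 2 or 4, Pilo replicate 3 or Pilo replicate 4 (adjusted p up to 0.133). That of Ino80 was lost when any library but Mock 4 and Pilo 2 was left out, and that of Chd2 with any but Mock 4 and Pilo 3 (each up to 0.109). Leaving out Mock 2, Mock 3 or Pilo 4 removed Arid4b (up to 0.093), Mock 2, Pilo 3 or Pilo 4 Chd5 (up to 0.0595), and Pilo 4 Smarce1 (0.0694).

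Exonic and intronic changes were compared within each gene by the interaction of region and treatment, with each region scaled apart. The exonic change was more positive in 8 of the 56 genes and more negative in 4, beside 13.5% and 12.8% of the 13047 genes tested. With RLE size factors in place of TMM the split was 8 and 8, for which the share over all genes is not given here. The largest positive difference was that of Arid3a (0.46, SE 0.14, adjusted p = 0.0302), whose introns had 10.5, 6.42, 10.8 and 11.0 CPM in Pilo, against 13.9, 16.0, 20.0 and 11.9 CPM in Mock. These groups were apart, and in exons of the same table the log2 fold change was -0.22. Ino80e fell in both regions, but by 0.88 on the log2 scale in introns, where it had 32.7, 43.6, 38.9 and 34.9 CPM in Pilo, against 65.6, 71.1, 75.2 and 64.7 CPM in Mock (difference 0.44, SE 0.08, adjusted p = 0.00109). Brd7 was at 0.27 in exons and -0.16 in introns (difference 0.43, SE 0.08, adjusted p = 0.0023). The other positive differences were Smarcc1 (0.34), Smarcd2 (0.31), Brd3 (0.29), Smarcc2 (0.25) and Chd6 (0.23). Smarcc1 is overlapped on the opposite strand by the protein-coding gene Dhx30, whose part was not tested.

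The negative differences were Arid4b, Brd9, Actl6a and Baz2b. Arid4b was at -0.03 in exons and 0.38 in introns, where it had 77.5, 66.0, 67.2 and 84.2 CPM in Pilo, against 61.9, 55.6, 43.9 and 64.7 CPM in Mock, which did not overlap (difference -0.42, SE 0.09, adjusted p = 0.00517). Brd9 was at -0.36 in exons and -0.05 in introns (difference -0.32, SE 0.07, adjusted p = 0.00732). Actl6a (-0.25, adjusted p = 0.0281) and Baz2b (-0.23, adjusted p = 0.0181) had more positive intronic changes. Protein-coding genes overlap Arid4b (Ggps1) and Actl6a (Mrpl47) on the opposite strand, and their part in these differences was not tested. Arid5a and Arid3b, which changed most in exons, had differences of -0.03 and -0.06 that did not pass (adjusted p = 0.906 and 0.771). Several calls of this comparison were lost when 1 library was left out. Leaving out one of Mock replicates 1, 2 and 3 or Pilo replicates 2 and 3 removed the call of Arid3a (adjusted p up to 0.101). For Chd6 these libraries were Mock 1 and 2 and Pilo 2, 3 and 4 (up to 0.105), for Brd3 Mock 1 and 2 and Pilo 3 and 4 (up to 0.0606), for Actl6a Mock 1 and 2 and Pilo 4 (up to 0.0632), and for Smarcc2 Pilo 3 (0.0537).

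**Figure D5:**
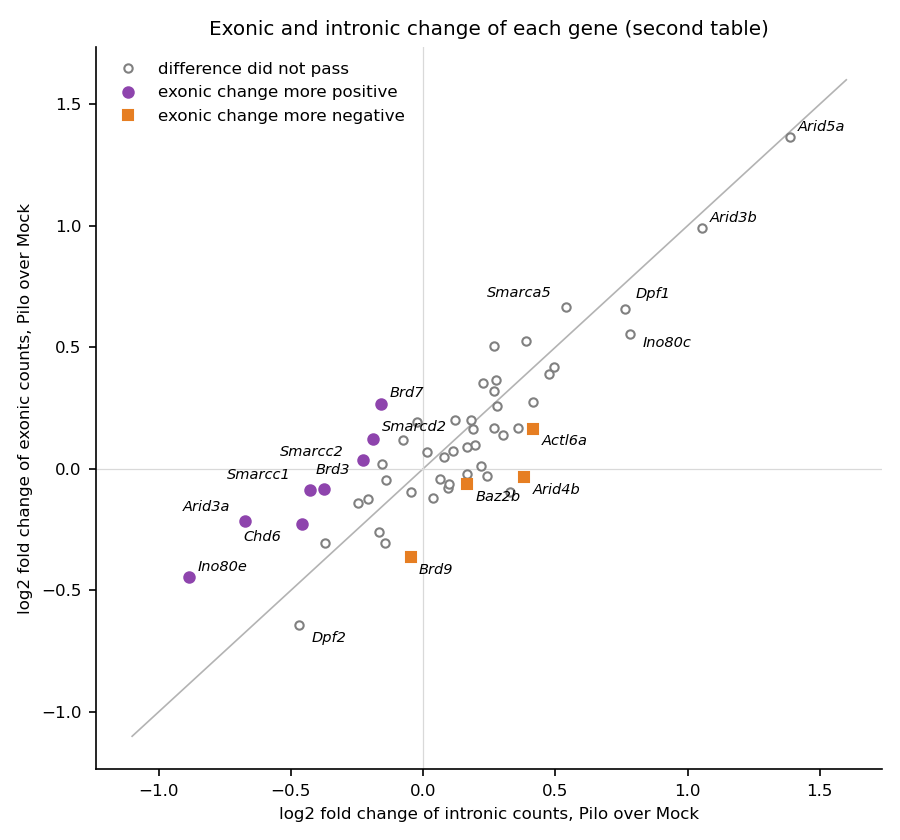
Log2 fold change, Pilo over Mock, of exonic (vertical) against intronic (horizontal) counts of the second table for the 56 genes, with the line of equality. Purple circles are the 8 genes whose exonic change was the more positive and orange squares the 4 whose exonic change was the more negative; both axes come from the same 8 libraries, so the points share their noise.

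Partner genes of the same complexes, 78 in 6 lists, gave 15 higher and 17 lower in exonic counts, with a median of 0.02. These are 19.2% and 21.8% of the 78, near the 15.6% and 16.2% of all genes tested. The counts per list, higher and lower, were 3 and 4 of 11 BAF partners, 3 and 0 of 6 ISWI partners, 0 and 1 of 10 NuRD genes, 3 and 7 of 22 INO80, SWR1 and TIP60 genes, 1 and 3 of 10 other SNF2 genes, and 5 and 2 of 19 other bromodomain genes. The smallest p-values in the higher direction were those of Rsf1 (log2 fold change 0.65), which pairs with SMARCA5, Pole3 (0.79), a histone-fold subunit of the CHRAC complex of SMARCA5, Ss18l1 (0.88), the neuronal BAF subunit CREST, and Rbbp7 (0.43), a histone chaperone. In the lower direction they were those of Atad2 (-0.89), a bromodomain ATPase, Actr5 (-0.47), an INO80 subunit, Bcl7a (-0.37) of BAF and Mrgbp (-0.47) of TIP60. Besides the DPF genes, another exchange pair of BAF changed. Ss18l1 was at 150 ± 28.0 CPM in Pilo and 81.8 ± 7.77 CPM in Mock (adjusted p = 0.000284), while Ss18, its progenitor counterpart, was at 32.8 ± 4.17 CPM in Pilo and 40.2 ± 1.87 CPM in Mock (SD, n = 4 each; log2 -0.30, adjusted p = 0.0267). Phf10, the progenitor subunit related to the DPF genes, was at -0.27 (adjusted p = 0.0128). Ss18 and Phf10 were chosen after their values were seen. The ACTL6 pair did not follow this direction. The neuronal Actl6b did not pass in exons (log2 -0.10), and the progenitor form Actl6a was higher, in exons only with the block. Without the block, Actl6a passed as higher in introns (log2 0.42, adjusted p = 0.00376) and gene bodies (log2 0.27, adjusted p = 0.0355). Its gene body call was lost in 5 of the 8 fits that left out a library. The neuronal Dpf3 was at -0.23 in exons and did not pass (adjusted p = 0.388).

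Over the 56 genes, the exonic change had correlations near 0 with gene length and level. The Spearman correlation of the log2 fold change was -0.058 with gene length, which ran from 3.667 to 353.325 kb, -0.082 with the Mock level per kilobase, and 0.017 with the intronic share in Mock, as descriptions over 56 genes measured in the same 8 libraries. Levels per kilobase in Mock ran from 0.515 to 69.8 CPM, with a median of 10.4.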

How the data were processed

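Polyadenylated nuclear RNA of 8 samples, 4 Pilo and 4 Mock, was analysed from the authors' raw counts of reads per gene, in a table of exonic counts and a second table of separate exonic and intronic counts. The tools in the submitters' processing notes, without their roles, are STAR 2.7.1a, HTSeq 0.11.2, Trimmomatic 0.39, edgeR and R 4.1.1, and the genome is mm10. For the annotation release, strand setting and rule for introns, nothing is given in the sources used here. Symbols and coordinates came from GENCODE vM21 and RefSeq on GRCm38 (the build called mm10). They matched 55144 of 55471 and 18507 of 18513 identifiers, and unmatched ones held 0.165% of counts.

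The tests here used edgeR 4.0.16 under R 4.3.3 (quasi-likelihood F-test, robust, TMM, filterByExpr with a minimum count of 10, Benjamini-Hochberg over all genes, threshold 0.05). Standard errors are the fitted coefficient over the square root of F. The interaction of region and treatment had each library as a block. The alternatives were RLE size factors, DESeq2 1.42.0, limma-voom (limma 3.58.1), no filter, a filter of 50 counts in 4 libraries, the replicate block, each library left out and, chosen after seeing Srcap, the second table's exonic counts. The tests were tried on simulated data.

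The groups share replicate numbers in the sample titles. Same-numbered samples deviated together from their group means (r = 0.372, 0.380, 0.401 and 0.377, all over the limit of 0.1), so blocked values are printed where they change an exonic call, and for introns and gene bodies as counts. In both groups, column 2 of one table matched column 3 of the other (r of at least 0.993 when crossed), which leaves the pairs as they are. Values of the second table carry its own column numbers. A chi-square test between replicates gave 10.2 to 34.2 per degree of freedom, so none were duplicates.

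The 56 genes, families, partner lists and marker lists were chosen with earlier results of these data known. Per-sample values are given for the 6 largest rises and 6 largest falls past the exonic test and for fixed genes (Smarca2, Smarca4, Arid1a, Actl6b, Bptf, Chd4 and Atrx), intronic ones being added where regions differed. Genes past the exonic or region test are named, except 1 that is counted but not reported here, with the 4 partner genes of smallest p per direction.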

Additional observations from a re-analysis of the deposited data

Results flagged for a closer look

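Per-sample exonic levels of 20 genes were screened in each group for a highest or lowest sample far from the other 3 (Dixon's ratio at its 95% limit). Of 40 groups, 2 held such a sample, and chance gives about 1 in 20. Arid5a in Pilo replicate 4 was at 21.0 CPM, above the 15.0 to 15.9 CPM of the other Pilo samples. Over the 8 fits that left out a library, this one included, Arid5a kept its call and its log2 fold change lay between 1.27 and 1.45. Smarca4 in Mock replicate 2 was at 173.0 CPM, against 157 to 159 CPM in the other Mock samples, and Smarca4 passed in none of the fits without a library (log2 fold change 0.10 to 0.14, adjusted p 0.196 to 0.389).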

How the results depend on the processing

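The exonic count of 14 higher genes stayed between 12 and 16 under the other scalings, filters and tools and without any 1 library. It became 25 with the replicate block. The 6 lower genes became 4 with RLE size factors or limma-voom and 3 to 6 without a library (3 without Mock replicate 3). In gene bodies the block gave 26 higher and 11 lower, and leaving out a library gave 10 to 17 higher (10 without Mock replicate 2) and 3 to 7 lower (3 without Mock replicate 1). In introns it gave 23 and 12, and 8 to 14 higher without a library (9 without Mock replicate 2, 8 without Pilo replicate 4). The region counts were 4 to 9 more positive without a library (5 without Mock replicate 1 or 2, 4 without Pilo replicate 3). The more negative ones were 8 with RLE size factors, 10 with the stricter filter and 3 to 9 without a library (7 without Mock replicate 3, 8 without Mock replicate 4, 9 without Pilo replicate 1). Shares over all genes are given only for the main fits and the replicate block, so these moves are not set against those of all genes. The cause of these moves was not tested. Bptf, which did not pass, changed sign in exons without Pilo replicate 3, at 0.02 (range without a library -0.07 to 0.02). Srcap and Ino80d lost their exonic calls with RLE size factors and limma-voom, Baz1a and Ep400 without the filter on low counts, and Srcap in the second table's exonic counts. The paired fit removed no call in exons, introns or gene bodies, and beyond the genes named above and these counts changed none of the exonic calls. A paired fit of the region comparison was not made. Its block on library does not pair same-numbered Pilo and Mock samples, so the effect of pairing on its calls is not known. Dpf3, Arid3c and Baz1a had only a few CPM, which limits the precision of their values.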
